A study of Homo sapiens with 12 samples.

Results

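The E2F and DP transcription factors were followed as a family of 10 genes, E2F1 to E2F8, TFDP1 and TFDP2, among the 60664 gene identifiers of the expression table. Members were taken by gene symbol, and all 10 were found. RNA had been sequenced from 12 samples of cultured human liver cancer cells, 3 in each of 4 groups. The groups were MHCC-97H with si-CENPU, MHCC-97H with si-NC, Huh-7 with si-CENPU and Huh-7 with si-NC. MHCC-97H and Huh-7 are hepatoma lines, and the labels give the control cells as WT and the others as CENPU knockdown. The small interfering RNA si-CENPU targets CENPU, a gene for an inner kinetochore protein, and si-NC is the control small interfering RNA that the other cells received. Each line is a single established line, and only its mean level over many cells was read. The study set the knockdown cells against their controls in each line. Nothing in the labels said that the 3 samples of a group were separate cultures, so p-values cover only how far these samples scatter, and that scatter may be technical.

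E2F proteins bind DNA at the start of genes needed for S phase. E2F1 to E2F6 do so as a pair with a DP protein, made from TFDP1 or TFDP2. E2F1, E2F2 and E2F3 are known as activators held in check by the retinoblastoma protein, and cyclin-dependent kinases that phosphorylate it free them. E2F4 and E2F5 mostly work as repressors with the related pocket proteins in resting cells. E2F6 binds no pocket protein and represses as part of a polycomb complex, and E2F7 and E2F8 bind DNA without a DP partner and repress E2F1 and other targets late in S phase. In liver, this network is best known for its part in regeneration and in liver tumours.

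Expression was given as TPM, transcripts of a gene relative to a fixed total per library, which corrects for gene length and so allows levels of different genes to be set side by side. TPM keeps no sequencing depth, so no counting error can be given, and an exact 0 can be a failed estimate. The hepatocyte markers (8 genes) summed to between 0.68 and 1.69 TPM in MHCC-97H and to between 6629 and 7550 TPM in Huh-7. APOB was listed at 0 in all 6 libraries of MHCC-97H, which held next to no transcripts of these liver genes. The endothelial markers (4 genes) summed to at most 0.68 TPM in any library and the fibroblast markers (5 genes) to at most 6.56 TPM. The 4 leukocyte markers that matched an identifier summed to between 17.65 and 20.5 TPM in MHCC-97H and to between 38.77 and 49.68 TPM in Huh-7. Most of that sum was CD68, a lysosomal protein gene also used outside leukocytes, at 15.57 to 19.06 TPM in MHCC-97H and 35.67 to 46.19 TPM in Huh-7. CENPU itself was lower with si-CENPU in both lines, without overlap, by 0.59 in MHCC-97H and by 0.41 in Huh-7 on the log2(TPM + 1) scale. It read 0.22 to 0.45 TPM with si-CENPU and 0.83 to 1.17 TPM with si-NC in MHCC-97H. In Huh-7 it read 0.11 to 0.45 TPM with si-CENPU and 0.53 to 0.84 TPM with si-NC. An exact permutation test within both lines together gave p = 0.005. Limma did not call CENPU in either line, at an adjusted p of 0.577 in MHCC-97H and 0.902 in Huh-7. Among the libraries, MHCC-97H si-NC replicate 1 held the highest value of its line for 7 of the 10 family genes, and Huh-7 si-NC replicate 1 the lowest of its line for 7 of them. These libraries also deviated from their line with transcript GC content, with a Spearman rho across genes of -0.53 in the MHCC-97H library and 0.34 in the Huh-7 library. Other libraries did so to a like degree: rho was 0.48 in MHCC-97H si-NC replicate 3, which held the lowest value of its line for 5 members, 0.30 in MHCC-97H si-CENPU replicate 3 and -0.33 in Huh-7 si-NC replicate 2. The part of GC content in the results below was not tested beyond a correction of the limma fits, whose values are given among the alternatives. It removed each library's deviation from its own line mean, for genes with a mean of at least 1 TPM. It did not reach E2F1, E2F7, E2F8, any exact test, or a GC trend shared by all libraries of a line.

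TFDP1 and E2F4 were by far the most abundant family transcripts in all 4 groups. E2F1 was the lowest, at values near 0 that can be failed estimates. TFDP1, the main DP partner, averaged 116 ± 7.51 TPM in MHCC-97H si-CENPU, 114 ± 14.8 TPM in MHCC-97H si-NC, 42.5 ± 11.3 TPM in Huh-7 si-CENPU and 35.0 ± 0.537 TPM in Huh-7 si-NC (SD, n = 3 each). E2F4 followed at 35.9 ± 4.24 TPM in MHCC-97H si-CENPU and 35.0 ± 3.23 TPM in MHCC-97H si-NC (SD, n = 3 each). In Huh-7 it averaged 13.1 ± 0.873 TPM with si-CENPU and 11.98 ± 2.86 TPM with si-NC (SD, n = 3 each). TFDP1 lies at chromosome 13, 113584721 to 113641470 on the plus strand, and E2F4 at chromosome 16, 67192169 to 67198918 on the plus strand (GRCh38, GENCODE 29). In every group the TFDP1 libraries lay above all E2F4 libraries, and the E2F4 libraries above those of every other member. The other 8 members stayed between 0 and 4.17 TPM in every library. E2F2, an activator, stood next in Huh-7 at 1.35 ± 0.169 TPM with si-CENPU and 1.34 ± 0.0777 TPM with si-NC (SD, n = 3 each). With si-NC its libraries lay above those of all lower members, and with si-CENPU E2F6 reached into its range. In MHCC-97H si-NC, TFDP2, E2F2, E2F5, E2F6, E2F7 and E2F3 followed each other between 2.82 and 1.67 TPM on average, and each overlapped the next in that order. E2F8 and then E2F1 came after them there with no overlap.

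**Figure D1:**
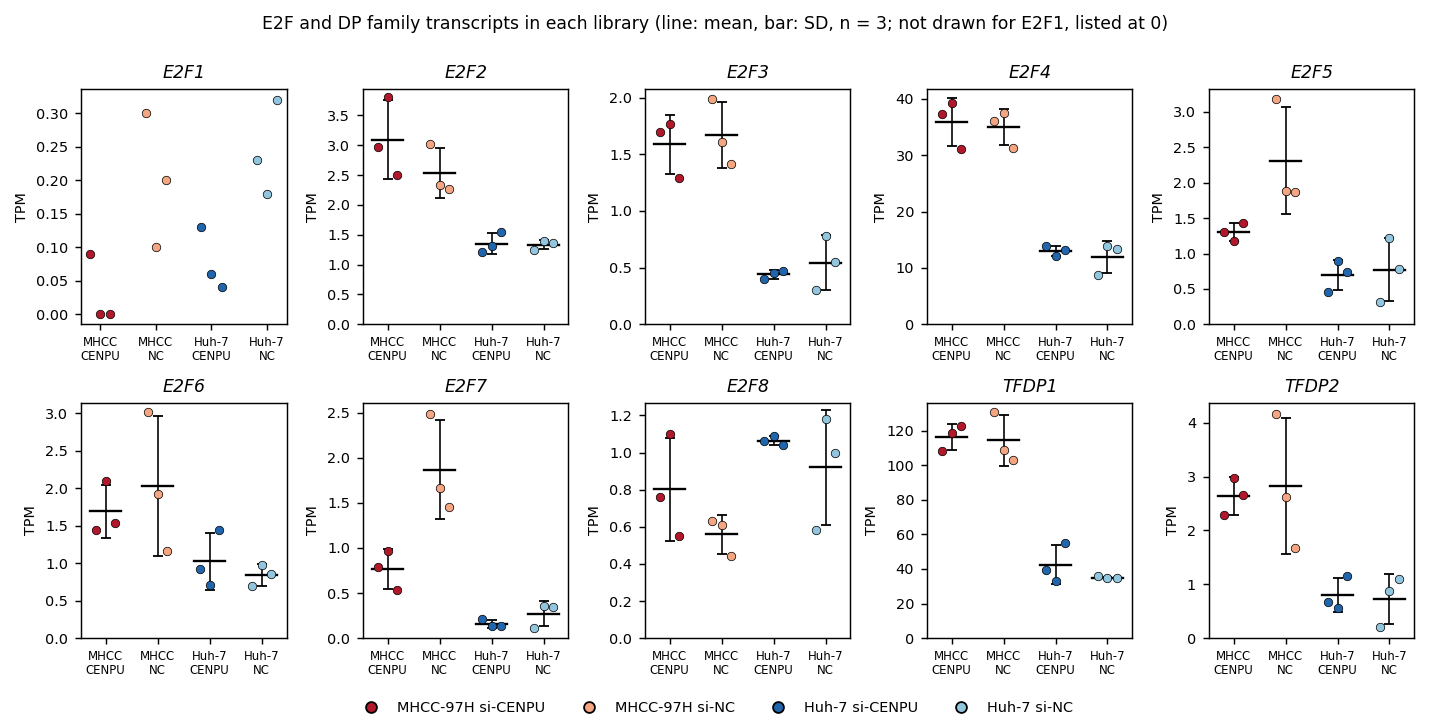
TPM of each family gene in each library (points), with the group mean (line) and SD (bar, n = 3), for MHCC-97H si-CENPU, MHCC-97H si-NC, Huh-7 si-CENPU and Huh-7 si-NC from left to right. Each panel has its own axis. For E2F1, listed at 0 in 2 libraries, only the points are drawn. TFDP1 and E2F4 stand at 8.69 to 131 TPM and the others at 0 to 4.17 TPM.

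E2F4 transcripts alone made up 71.1 to 80.5% of the summed E2F TPM in the MHCC-97H libraries and 69.5 to 76.0% in the Huh-7 libraries. Together with E2F5, its close relative, the pocket-bound repressors held 77.4 to 83.6% in MHCC-97H and 74.0 to 78.5% in Huh-7. The activators E2F1 to E2F3 held 8.49 to 11.1% in MHCC-97H and 9.52 to 14.6% in Huh-7, most of it E2F2. The atypical E2F7 and E2F8 held 2.77 to 6.15% in MHCC-97H and 5.67 to 7.69% in Huh-7. Over all 6 libraries of each line these shares overlapped for every class, but within an siRNA some did not. The share of E2F4 with E2F5 was 80.6 to 83.6% in MHCC-97H si-CENPU and 74.9 to 78.5% in Huh-7 si-CENPU, and 77.4 to 82.7% in MHCC-97H si-NC and 74.0 to 76.1% in Huh-7 si-NC. The activators' share also lay apart in si-NC, and those of E2F6 and of the atypical pair in si-CENPU, each lower in MHCC-97H. TFDP1 held 96.9 to 98.4% of the DP transcripts in MHCC-97H and 96.9 to 99.4% in Huh-7, so TFDP2 was the minor DP transcript in every library. The DP transcripts outnumbered the E2F transcripts 2.34 to 3.21 times in MHCC-97H and 1.78 to 3.03 times in Huh-7.

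**Figure D2:**
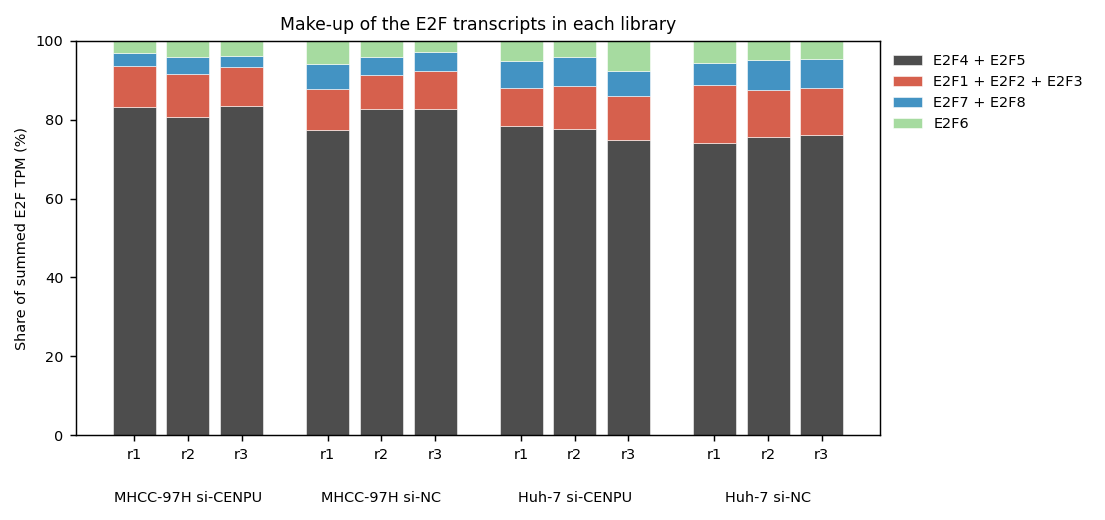
Share of the summed TPM of E2F1 to E2F8 (vertical axis, percent) that each class held in each library, with the 3 libraries of a group side by side. E2F4 with E2F5 takes 74.0% or more of every bar.

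The knockdown comparison asked whether the family changed when CENPU was lowered. By limma's moderated test on log2(TPM + 1), with p-values adjusted over all 11088 genes with a mean of at least 1 TPM, 0 of the 7 family genes above that limit were called at an adjusted p below 0.05. This held in MHCC-97H, in Huh-7 and for the difference of the responses between the lines. Of all tested genes 0.00902% were called in each of these comparisons, so nearly nothing passed and the family's 0 cannot be told from the background. At an unadjusted p below 0.05, limma gave 1 of 7 members in MHCC-97H, E2F5, against 3.42% of all genes, and 0 of 7 in Huh-7, against 4.57% of all genes. E2F1, E2F7 and E2F8 averaged under 1 TPM and were reached by a fit of the 18005 genes with a mean of at least 0.1 TPM and by exact permutation tests. In that wider fit 0 of the 10 members were called as well.

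Counted by overlap of the libraries, 3 of 10 members, E2F1, E2F5 and E2F7, lay wholly lower with si-CENPU in MHCC-97H, against 3.87% of the genes with a mean of at least 0.1 TPM. In Huh-7 it was 1 of 10, E2F1, against 3.41%. E2F1 was also the 1 of 10 that lay lower in both lines, against 0.239% of genes. No member lay wholly higher with si-CENPU in either line. The share of all genes that did was not counted, so no direction of the family can be read from this. In these bulk samples fewer cells that carry a transcript and less of it per cell cannot be told apart.

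E2F7, an atypical repressor, had the widest gap after knockdown in MHCC-97H on the log2(TPM + 1) scale, which shrinks the gaps of members nearer 0 such as E2F1. The gene lies at chromosome 12, 77021247 to 77065580 on the minus strand. It read 0.79, 0.97 and 0.53 TPM with si-CENPU and 2.49, 1.66 and 1.45 TPM with si-NC there. All 3 knockdown libraries lay below all 3 controls, and the mean was 59.1% lower. In Huh-7 the values were 0.21, 0.14 and 0.13 TPM with si-CENPU and 0.11, 0.36 and 0.34 TPM with si-NC, and the groups overlapped because control replicate 1 was the lowest of the 6 libraries. On the log2(TPM + 1) scale the difference was -0.69 in MHCC-97H, with a limma 95% interval from -1.03 to -0.36 and an adjusted p of 0.538, and -0.13 in Huh-7, with an adjusted p of 1. The difference between the lines' responses was -0.57, at an unadjusted limma p of 0.0239 and an adjusted p of 1.0. An exact permutation test within both lines together, two-sided and with a smallest possible p of 0.005, gave a difference of -0.41 and p = 0.02, 1 of 10 such tests. Over 17 alternatives this exact p ran from 0.005 to 0.035.

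E2F8, the other atypical member, did not share this direction. It read 0.76, 1.1 and 0.55 TPM with si-CENPU and 0.63, 0.61 and 0.44 TPM with si-NC in MHCC-97H. Its Huh-7 libraries stood at 1.06, 1.09 and 1.04 TPM with si-CENPU and at 0.58, 1.18 and 1.0 TPM with si-NC. The groups overlapped in both lines. The gene (chromosome 11, 19224063 to 19241620, minus strand) overlaps AC009652.2 on the opposite strand. The difference over both lines was 0.16 on the log2 scale with an exact permutation p of 0.145. That p passed 0.05 under quantile normalization (0.025) and trimmed-mean scaling (0.03) and without Huh-7 si-NC replicate 2 (0.035), within a range of 0.025 to 0.31 over 17 alternatives.

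E2F5, a pocket-bound repressor, was lower with si-CENPU in MHCC-97H only by the overlap count and the unadjusted p. Its MHCC-97H libraries read 1.31, 1.17 and 1.43 TPM with si-CENPU and 3.18, 1.89 and 1.87 TPM with si-NC. The groups did not overlap, and the highest control was replicate 1, the library with the highest values for 7 members. In Huh-7 it read 0.46, 0.89 and 0.74 TPM with si-CENPU and 0.32, 1.22 and 0.78 TPM with si-NC, with overlap. The limma difference in MHCC-97H was -0.50 ± 0.21 (SE), with an unadjusted p of 0.0375 and an adjusted p of 1. Without MHCC-97H si-NC replicate 1 it was -0.32, and 0 of 7 members then passed an unadjusted limma p of 0.05 in MHCC-97H. The exact permutation p over both lines was 0.125, and 0.02 without Huh-7 si-NC replicate 1, in a range of 0.02 to 0.31. E2F5 (chromosome 8, 85177225 to 85217158, plus strand) overlaps C8orf59 and AC011773.1 on the opposite strand, and the strand setting of the counting is not given in the sources used here.

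E2F4, the most abundant E2F, read 37.34, 39.28 and 31.16 TPM with si-CENPU and 36.08, 37.49 and 31.33 TPM with si-NC in MHCC-97H. In Huh-7 the values were 13.88, 12.14 and 13.14 TPM with si-CENPU and 8.69, 13.93 and 13.31 TPM with si-NC. The groups overlapped in both lines. The 95% limma intervals of the difference were -0.32 to 0.39 in MHCC-97H and -0.22 to 0.49 in Huh-7. They cover only the scatter of these libraries, which may be technical, so a difference outside them is not excluded.

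Among the activators, E2F1 had the values nearest 0, and its MHCC-97H readings with si-CENPU were 0.09 TPM in 1 library and exact zeros in the other two. The control libraries there stood at 0.3, 0.1 and 0.2 TPM. Its Huh-7 libraries stood at 0.13, 0.06 and 0.04 TPM with si-CENPU, and those with si-NC at 0.23, 0.18 and 0.32 TPM. The exact permutation p over both lines, at 0.005 the smallest possible, stayed between 0.005 and 0.01 over 17 alternatives. The groups did not overlap in either line, and another pseudocount or leaving out a library cannot undo that. Most of this range was therefore fixed in advance and adds little. No E2F1 library exceeded 0.32 TPM, so this separation rests on values near 0, which can be failed estimates. E2F1 was 1 of the 2 members, beside E2F7, with an exact p below 0.05, and the share of all genes that would pass was not counted. E2F2 read 2.97, 3.81 and 2.5 TPM with si-CENPU and 3.02, 2.33 and 2.27 TPM with si-NC in MHCC-97H. In Huh-7 it read 1.21, 1.31 and 1.54 TPM with si-CENPU and 1.25, 1.4 and 1.36 TPM with si-NC. E2F3 stayed at 1.29 to 1.77 TPM with si-CENPU and 1.41 to 1.99 TPM with si-NC in MHCC-97H. In Huh-7 it stayed at 0.4 to 0.47 TPM with si-CENPU and 0.3 to 0.78 TPM with si-NC. Both genes overlapped between the groups in both lines, with exact permutation p-values over both lines of 0.28 for E2F2 and 0.46 for E2F3. E2F1 (chromosome 20, 33675683 to 33686404, minus strand) was therefore the only activator whose groups separated. E2F2 lies at chromosome 1, 23506430 to 23531220 on the minus strand, and E2F3 at chromosome 6, 20401906 to 20493715 on the plus strand, where E2F3-IT1 overlaps it on the same strand.

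E2F6, the polycomb-linked repressor (chromosome 2, 11444375 to 11466177, minus strand), spanned 1.44 to 2.1 TPM with si-CENPU and 1.16 to 3.02 TPM with si-NC in MHCC-97H. In Huh-7 it spanned 0.71 to 1.44 TPM with si-CENPU and 0.69 to 0.98 TPM with si-NC. The E2F6 difference over both lines was -0.0060 on the log2 scale, with an exact permutation p of 0.965, and changed sign under 4 alternatives and on leaving out any of 6 libraries. TFDP1 read 108.14, 118.51 and 122.73 TPM with si-CENPU and 131.01, 108.94 and 102.94 TPM with si-NC in MHCC-97H. In Huh-7 it read 39.28, 33.07 and 55.03 TPM with si-CENPU and 35.65, 34.83 and 34.64 TPM with si-NC. The Huh-7 controls lay close together and inside the wide range of the knockdown libraries. The minor partner TFDP2 spanned 2.28 to 2.98 TPM with si-CENPU and 1.67 to 4.17 TPM with si-NC in MHCC-97H. In Huh-7 it spanned 0.56 to 1.16 TPM with si-CENPU and 0.2 to 1.1 TPM with si-NC, and TFDP2, like E2F6, overlapped between the groups in both lines. Exact permutation p-values over both lines were 0.315 for TFDP1 and 0.87 for TFDP2.

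**Figure D3:**
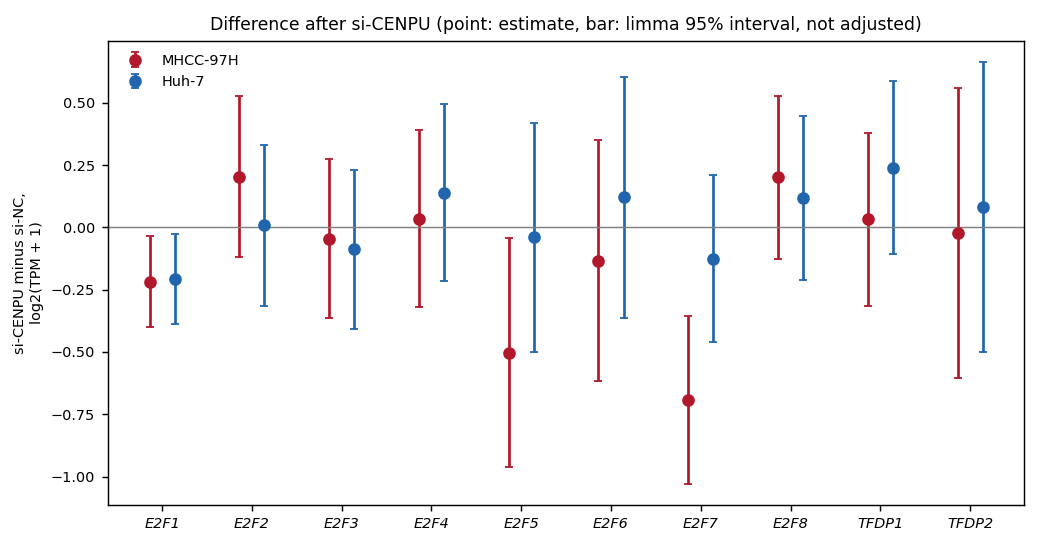
Difference of si-CENPU minus si-NC on the log2(TPM + 1) scale (vertical axis) for each family gene in MHCC-97H and Huh-7, from the limma fit of genes with a mean of at least 0.1 TPM. Points are estimates and bars 95% intervals, not adjusted for the number of genes. The MHCC-97H interval of E2F7 (-1.03 to -0.36) lies farthest from 0.

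Between the lines the family differed widely. In the si-NC libraries 7 of the 7 members tested by limma were called higher in MHCC-97H than in Huh-7, against 50.1% of all tested genes. In the si-CENPU libraries, which share no sample with these, 5 of 7 were called higher, against 46.2% of all genes, and E2F5 and E2F6 were not. Over all 6 libraries of each line 6 of 10 members, E2F2, E2F3, E2F4, E2F7, TFDP1 and TFDP2, lay wholly higher in MHCC-97H, against 34.9% of genes. No member lay wholly lower there, and the share of all genes that did was not counted.

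This comparison rests on how the libraries are scaled. The median difference of all tested genes was 0.49 on the log2 scale in si-NC and 0.40 in si-CENPU, so a gene at 0.49 stood at the middle of the table. As deposited, 5557 genes were called higher and 2542 lower in MHCC-97H in si-NC, against 4445 and 3456 after quantile normalization and 3715 and 3910 after trimmed-mean scaling. Under trimmed-mean scaling, which brought the median of all genes to -0.0013, 5 of the 7 members were called higher in si-NC (E2F3, E2F4, E2F5, TFDP1 and TFDP2). E2F2 and E2F6 were then not called, and E2F2 was not called after quantile normalization either, at an adjusted p of 0.067.

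TFDP1 stood at 102.94 to 131.01 TPM in MHCC-97H si-NC and 34.64 to 35.65 TPM in Huh-7 si-NC, the largest limma difference among the members above 1 TPM on the log2(TPM + 1) scale, though not the largest fold of means. The fold of means was 3.26, and the limma log2 difference 1.67 ± 0.16 (SE, adjusted p = 2.17e-06). After trimmed-mean scaling it was 1.03 (adjusted p = 2.26e-04). TFDP2 was 3.88-fold higher in MHCC-97H si-NC, at 4.17, 2.62 and 1.67 TPM, than in Huh-7 si-NC, at 0.2, 0.88 and 1.1 TPM, with a log2 difference of 1.13 ± 0.27 (SE, limma adjusted p = 0.00246). In si-NC both DP genes were thus called higher in MHCC-97H under each scaling tried. TFDP2 (chromosome 3, 141944428 to 142149544, minus strand) overlaps AC133435.1 on its own strand.

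E2F4 was 2.92-fold higher in MHCC-97H si-NC than in Huh-7 si-NC, with a limma log2 difference of 1.49 ± 0.16 (SE, adjusted p = 6.81e-06) and 0.87 after trimmed-mean scaling. E2F5 was 2.99-fold higher with si-NC, with a log2 difference of 0.91 ± 0.21 (SE, limma adjusted p = 0.00243). With si-CENPU it differed by 0.45, at a limma adjusted p of 0.0805, and the lines overlapped over their 6 libraries, at 1.17 to 3.18 TPM in MHCC-97H and 0.32 to 1.22 TPM in Huh-7. Whether that gap itself differed with the siRNA was tested as the difference of responses, which was -0.46 with a limma adjusted p of 0.999.

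The activators went separate ways. E2F3 was 3.07-fold higher in MHCC-97H si-NC, with a limma log2 difference of 0.80 ± 0.15 (SE, adjusted p = 6.61e-04), and its 6 MHCC-97H libraries at 1.29 to 1.99 TPM lay above the 6 of Huh-7 at 0.3 to 0.78 TPM. E2F2 was 1.9-fold higher, with a difference of 0.59 ± 0.15 (SE, limma adjusted p = 0.00335), close to the median of all genes. E2F1 was at 0 to 0.3 TPM in MHCC-97H and 0.04 to 0.32 TPM in Huh-7, and the lines overlapped. Its exact permutation p within both siRNAs was 0.25, and 0.03, lower in MHCC-97H, after trimmed-mean scaling, in a range of 0.03 to 0.52. E2F6 was called higher in si-NC at 0.68 ± 0.22 (SE, limma adjusted p = 0.0171). That call was lost without Huh-7 si-NC replicate 1 (limma adjusted p = 0.0505) and without MHCC-97H si-NC replicate 1 (0.0716), in a range of 0.00221 to 0.123 over 25 alternatives.

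Of the atypical pair, only E2F7 lay apart between the lines on the deposited scale. E2F7 was 6.91-fold higher in MHCC-97H si-NC and 4.77-fold higher in MHCC-97H si-CENPU than in the matching Huh-7 group. All 6 MHCC-97H libraries, at 0.53 to 2.49 TPM, lay above all 6 of Huh-7, at 0.11 to 0.36 TPM. In the fit of genes with a mean of at least 0.1 TPM its log2 difference was 1.16 in si-NC (limma adjusted p = 4.98e-05) and 0.60 in si-CENPU (0.00563). E2F8 spanned 0.44 to 1.1 TPM in MHCC-97H and 0.58 to 1.18 TPM in Huh-7, with overlap. Its mean log2 difference within both siRNAs was -0.25, with an exact permutation p of 0.06. After quantile normalization and trimmed-mean scaling it was -0.44 and -0.51, each with an exact permutation p of 0.005, so E2F8 was lower in MHCC-97H under those scalings. Without Huh-7 si-NC replicate 1 or MHCC-97H si-CENPU replicate 2 its difference was -0.31 or -0.30 and the exact p also passed 0.05, in a range of 0.005 to 0.095.

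**Figure D4:**
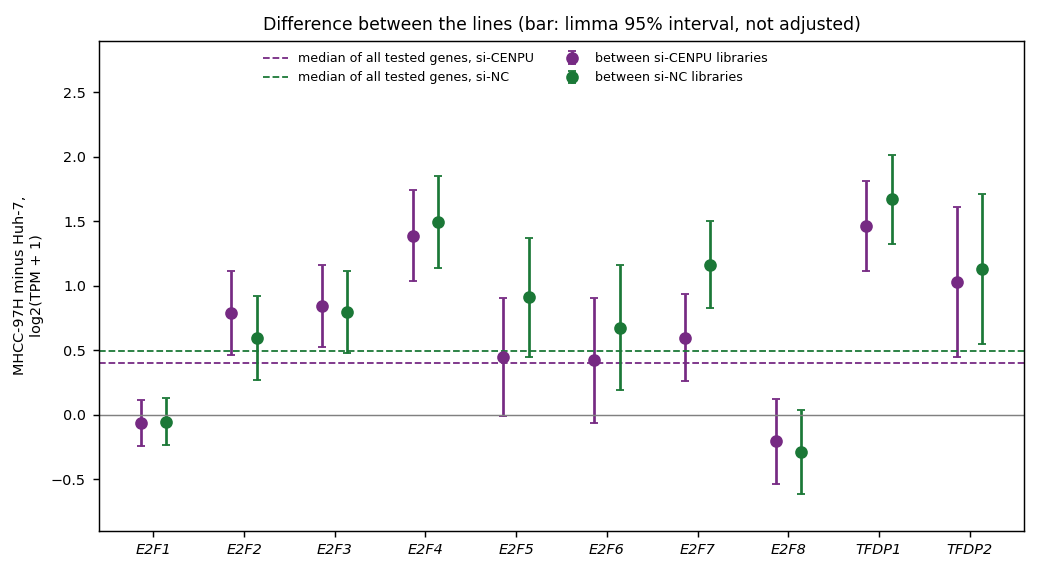
Difference of MHCC-97H minus Huh-7 on the log2(TPM + 1) scale (vertical axis) for each family gene, between the si-CENPU libraries and between the si-NC libraries, from the limma fit of genes with a mean of at least 0.1 TPM. Points are estimates, bars 95% intervals not adjusted for the number of genes, and dashed lines the medians of all genes with a mean of at least 1 TPM (0.40 and 0.49). TFDP1 and E2F4 lie well above both lines, and E2F1 and E2F8 lie below them. E2F1, E2F7 and E2F8 average under 1 TPM and are not among the genes of those medians. In the fit drawn the medians are 0.21 and 0.27. Values near 0 keep the difference of E2F1 small on this scale.

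Promoters of E2F genes are textbook E2F targets, which is why those with a match to the E2F motif are shown. RefSeq windows of 300 bases (GRCh38.p14, 250 before and 50 from the start) were found for 8 of the 10 genes. E2F5 and E2F8 had none. The motif was searched on both strands as the 4 words TTTCCCGC, TTTCGCGC, TTTGCCGC and TTTGGCGC, and no other motif was searched. It occurs in 3.31% of the 35116 windows of all genes. The 8 members have 11 windows between them. Counted by gene, which is not the unit of that share, 4 of the 8 had a match. E2F4, E2F6, E2F7 and TFDP2 had none in their windows. Capitals mark the match on either strand, in sequences written along the gene from 5′ to 3′.
E2F1, chr20:33686386-33686448, minus strand: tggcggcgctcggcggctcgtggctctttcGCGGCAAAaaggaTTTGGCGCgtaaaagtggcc
E2F2, chr1:23531238-23531305, minus strand: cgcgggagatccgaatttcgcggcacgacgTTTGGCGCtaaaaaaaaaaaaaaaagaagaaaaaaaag
E2F3, chr6:20401796-20401863, plus strand: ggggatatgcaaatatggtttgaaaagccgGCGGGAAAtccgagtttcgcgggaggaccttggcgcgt
TFDP1, chr13:113584603-113584670, plus strand: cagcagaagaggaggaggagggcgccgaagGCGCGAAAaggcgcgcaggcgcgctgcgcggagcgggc
The matches of E2F1 begin 33 and 20 bases before the start, and those of E2F2, E2F3 and TFDP1 begin 42, 53 and 120 bases before it. E2F3 has a second window with no match. The genes with a match include E2F1, whose groups separated after si-CENPU in both lines, and E2F2, E2F3 and TFDP1, whose groups overlapped in both.

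The partners and targets of the family were read from lists of 79 genes in all, 67 of them above the limit of 1 TPM. None was called by limma after si-CENPU in MHCC-97H or Huh-7 or for the difference of responses. Of all tested genes 0.00902% were called in each, so the lists' lack of calls cannot be told from the background. At an unadjusted p below 0.05, limma gave 2 list genes in each of these 3 comparisons. All tested genes gave 3.42% in MHCC-97H, 4.57% in Huh-7 and 383 of 11088 for the difference. Of the S-phase targets, genes of DNA replication, 32 of 33 were tested. Their median difference was -0.03 in MHCC-97H, against -0.05 for all genes, and -0.04 in Huh-7, against 0.01 for all genes. After trimmed-mean scaling the list's median was 0.04 in MHCC-97H, with the sign turned, and -0.06 in Huh-7. TK1, thymidine kinase, had the smallest p, at 153.75, 164.26 and 146.64 TPM with si-CENPU and 115.02, 138.17 and 135.62 TPM with si-NC in MHCC-97H. Its knockdown libraries lay above all controls there, with a log2 difference of 0.26 (limma unadjusted p = 0.0118, adjusted p = 1). RBL1, the pocket protein p107 and itself an E2F target, differed by 0.70 in MHCC-97H (limma unadjusted p = 0.0821, adjusted p = 1), at 3.47, 7.75 and 7.38 TPM with si-CENPU and 2.26, 3.03 and 4.82 TPM with si-NC. MCM2, a subunit of the replicative helicase, differed by -0.41 in Huh-7 (limma unadjusted p = 0.076, adjusted p = 1), where it was listed at 0 in all 3 si-CENPU libraries and at 0, 0.38 and 0.69 TPM with si-NC.

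Of the genes that act on the pocket proteins, D cyclins, CDK4/6 and their inhibitors, 10 of 11 had a negative difference after si-CENPU in MHCC-97H (median -0.15) and 5 of 11 in Huh-7 (median 0.12), with 0 called in either by limma. The 10 include CDKN2B at -0.00011, and the share of all genes with a negative difference was not counted. The median of all genes in MHCC-97H was -0.05, and after trimmed-mean scaling, which brought it to 0, 8 of the 11 were negative (median -0.07), with CDK4, CDKN2A and CDKN2B positive. CDKN1C, a kinase inhibitor, differed by -0.34 in MHCC-97H (limma unadjusted p = 0.0458, adjusted p = 1). CDKN2A, the p16 gene, differed by 0.21 in Huh-7 (limma unadjusted p = 0.0345, adjusted p = 1) at values of 0 to 0.27 TPM. CCND1, cyclin D1, differed by -0.53 in Huh-7 (limma unadjusted p = 0.0511, adjusted p = 1), at 0.02, 0.02 and 0.09 TPM with si-CENPU and 1.43, 0.3 and 0.08 TPM with si-NC. The gap of CCND1 rests on control replicate 1. Both tested genes of the E cyclin group, CCNE1 and CDK2, differed by between -0.24 and -0.02 in the lines.

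The MuvB group holds genes of the core that binds E2F4 and pocket proteins in the DREAM complex, and also MYBL2 and FOXM1. In this group LIN37 had the smallest p. It read 11.68, 10.99 and 12.73 TPM with si-CENPU and 20.43, 12.68 and 17.03 TPM with si-NC in Huh-7, with a log2 difference of -0.45 (limma unadjusted p = 0.0218, adjusted p = 1). Next in that group were LIN52, at -0.31 in Huh-7, and LIN9, at 0.22 in Huh-7, with limma adjusted p-values of 1. In the E2F6 polycomb list the smallest p-values belonged to PCGF6 (0.22 in Huh-7), MAX (0.33 in Huh-7) and RING1 (-0.16 in Huh-7), none called by limma. Among genes of E2F turnover and coactivation, SKP2, CCNA2 and TRRAP differed by -0.20, -0.20 and -0.14 in MHCC-97H. Of the apoptosis targets, PMAIP1 stood at -0.22 in MHCC-97H and BCL2L11 at 0.23 in Huh-7.

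Between the lines in si-NC, 52 of the 67 list genes were called higher in MHCC-97H by limma and 2 lower, LIN37 (-0.64) and BBC3 (-0.35), against 50.1% higher and 22.9% lower of all tested genes. Of the 32 S-phase targets 27 were called higher and 0 lower, with a median of 1.18 against 0.49 for all genes. After quantile normalization 23 were called higher and 2 lower, and after trimmed-mean scaling 20 were called higher and 2, GINS1 and TK1, lower, while CDT1, ORC1 and CHAF1A turned to uncalled values just below 0. Among the 27 were RBL1, CCNE1, CCNA2, CDC6, CDT1, ORC1, MCM2, MCM3, MCM5, MCM6, MCM7, CDC45, GINS2, PCNA, RFC4, POLA1, PRIM1, RRM1, RRM2, TYMS, CHAF1A, EZH2, UNG and BRCA1. The largest gaps were those of MCM2 (5.96), PCNA, the replication clamp (5.18), and RRM1, a ribonucleotide reductase subunit (2.64). PCNA read 44.92, 42.06 and 27.09 TPM in MHCC-97H si-NC, against 0.01, 0.07 and 0.09 TPM in Huh-7 si-NC. MCM2 was listed at 0, 0.38 and 0.69 TPM in Huh-7 si-NC. Dividing cells need both genes, so these Huh-7 values can be failed estimates, and 6 of the 32 targets averaged under 0.5 TPM in Huh-7 while none did in MHCC-97H.

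Of the D cyclins, CDK4/6 and inhibitors 9 of 11 were called higher in MHCC-97H by limma, against 50.1% of all tested genes: CCND1, CCND3, CDK4, CDK6, CDKN2A, CDKN2C, CDKN1A, CDKN1B and CDKN1C. After trimmed-mean scaling 8 were called higher and CDKN2B and CDKN2D lower. CDK4, the kinase that pairs with D cyclins, read 487.58, 536.44 and 500.07 TPM in MHCC-97H si-NC, and in Huh-7 si-NC it read 0.32 TPM in 1 library and was listed at 0 in the other two. The inhibitor CDKN2A read 1094 to 1275 TPM in MHCC-97H si-NC, while its Huh-7 si-NC libraries read 0 to 0.06 TPM. CCND1 and CCND3 differed by 4.32 and 3.31. CDK2 read 27.17 to 40.49 TPM in MHCC-97H si-NC and 0 to 0.02 TPM in Huh-7 si-NC, and CCNE1 differed by 2.37. In Huh-7, 5 of the 11 averaged under 0.5 TPM, and its values of CDK4 and CDK2 at or near 0 can be failed estimates too.

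Calls of the remaining lists in si-NC stand against 50.1% higher and 22.9% lower of all tested genes. After trimmed-mean scaling 3715 of all 11088 genes were called higher and 3910 lower. Of the MuvB list, which includes MYBL2 and FOXM1, RBBP4, FOXM1, MYBL2 and LIN9 were called higher (2.23, 1.80, 1.53 and 0.80). Of the E2F6 polycomb list 7 of 8 were called higher, MAX (2.20), CBX3 (2.02), WDR5 (1.73), RING1 (1.42), MGA (1.07), YAF2 (1.06) and PCGF6 (1.0), all 7 also after trimmed-mean scaling, where L3MBTL2 was called lower. CCNA2, CCNF, SKP2 and HCFC1 of the turnover list were called higher, and only CCNA2 and CCNF after trimmed-mean scaling, where EP300 was called lower and SKP2 and HCFC1 turned to uncalled values just below 0. PMAIP1 was called higher (0.99). RB1 and RBL2, the other pocket proteins, averaged 0.861 and 0.521 TPM over the 12 libraries and were below the limit, and TFDP3 was listed at 0 throughout.

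**Figure D5:**
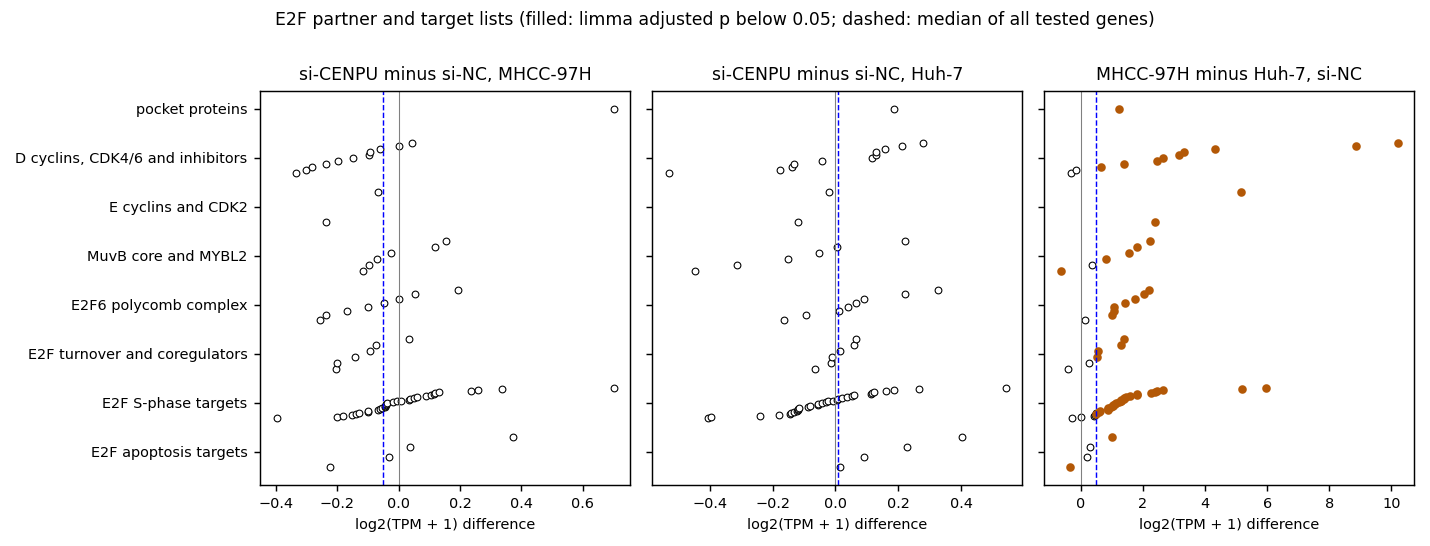
Differences on the log2(TPM + 1) scale (horizontal axes) of the tested genes in each list of partners and targets, for si-CENPU minus si-NC in MHCC-97H (left) and Huh-7 (middle) and for MHCC-97H minus Huh-7 in si-NC (right). Each point is a gene, filled where limma's adjusted p is below 0.05, and the dashed line is the median of all tested genes. No point is filled after si-CENPU, and 54 of 67 genes are filled between the lines.

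The genes most like each member were ranked by Pearson's r of log2(TPM + 1), centred on the mean of each line, over the 12 libraries, which share the line means and each library's depth and GC deviation. No p is given, since they were picked from all tested genes. TFDP2 was most like SCAF4 (r = 0.97), TMBIM4 (0.95) and ARID3A (0.95), and E2F4 most like an identifier with no symbol (0.97), CLNS1A (0.96) and KDM2A (0.96). E2F3 was most like LSG1 (0.96), PGK1 (0.95) and PARPBP (0.95), and E2F6 most like PHTF2 (0.96), BIRC6 (0.95) and EED (0.95). TFDP1 had NENF (0.94), ZNF451 (0.92) and SAMD4A (0.91), E2F2 had TMEM164 (0.93), SSH2 (0.90) and CHST11 (0.88), and E2F5 had ITGB1P1 (0.90), DDX60L (0.88) and STRADB (0.88). Among the 21 pairs of members above 1 TPM, TFDP2 and E2F6 had the highest r, 0.86, and E2F2 and E2F5 the lowest, -0.07.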

How the data were processed

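RNA-seq of 12 samples was analysed from the TPM values deposited by the authors, 1 column per sample, summing to between 998416 and 999065. Per the submitters' processing notes HISAT2 and StringTie were used on GRCh38.p13, with no versions, annotation release or strand setting given in these sources. Groups and replicate numbers came from the sample titles. Symbols matched 60447 of 60664 identifiers, and coordinates came from GENCODE 29 on GRCh38.

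TPM was taken as log2(TPM + 1), which understates differences of low genes. Genes with a mean of at least 1 TPM (11088) were fitted with 1 mean per group over all 12 samples in limma 3.58.1 (R 4.3.3), with a mean-variance trend and Benjamini-Hochberg adjustment over all tested genes, called below 0.05. Exact two-sided permutation tests covered each member within a line (smallest p 0.1) and within both lines (400 arrangements, smallest p 0.005), 10 members per comparison, with raw p-values. Scripts were tested on simulated data. Members and lists were chosen with earlier results of these data known. Named genes were all members, CENPU, every called list gene and otherwise up to 3 per list with the smallest knockdown p, with values for up to 4 with the largest called line difference, and the 3 genes most like each member. Figures used matplotlib 3.10.9. Values of some genes of the lists of partners and targets are not reported here.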

Additional observations from a re-analysis of the deposited data

How the results depend on the processing

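Alternatives were pseudocounts of 0.1 and 0.5, other expression limits, quantile, trimmed-mean and rescaled values, GC correction, separate fits, other moderation and leaving out each library. The count of 0 called members after si-CENPU held in each of these fits. Called members between the lines in si-NC numbered 5 to 8, and 2 with a limit of 5 TPM, which only 2 members reach. Deviations of same-numbered samples correlated with r from -0.091 to 0.13, and those of differently numbered samples with r from -0.12 to 0.16. This does not show whether samples were prepared in pairs. A replicate block changed no member's call, with 0 members called after si-CENPU. With a block across lines, an alternative chosen after seeing the data, 7 were called between the lines. Exact tests below 0.05 numbered 2 or 3 after si-CENPU and 8 or 9 between lines. Among all genes, 1 was called in each knockdown contrast and 1 for the difference of responses, against 0 to 11 in Huh-7, 0 to 8 in MHCC-97H and 0 to 6 for the difference under the alternatives. Between the lines 8099 genes were called, and 4405 with a limit of 5 TPM. Depth is unknown, which limits every value near 0.

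Signs of differences near 0, none of them called, turned as follows, on the log2 scale, and the cause was not tested. E2F6 over both lines became 0.020 and 0.0030 with pseudocounts of 0.1 and 0.5, 0.028 after quantile normalization and 0.022 after trimmed-mean scaling. TFDP2 over both lines was -0.057 TPM as a difference of mean TPM. CENPU between the lines was -0.030 after trimmed-mean scaling. E2F2 in Huh-7 was -0.013 after quantile and -0.012 after trimmed-mean scaling, -0.0089 rescaled without the 100 most abundant genes and -0.030 after GC correction, with or without the replicate block. E2F3 in MHCC-97H was 0.016, 0.0024 and 0.062 after quantile normalization, trimmed-mean scaling and GC correction, the last with or without the block. TFDP2 in MHCC-97H was 0.054, 0.040, 0.020 and 0.080 after quantile, trimmed-mean, rescaling and GC correction, and its difference of responses was 0.014 after GC correction, with or without the block.

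Leaving out each library gave ranges across 0 over both lines of -0.012 to 0.14 for E2F4, -0.12 to 0.11 for E2F6 and -0.091 to 0.15 for TFDP2. In MHCC-97H they were -0.12 to 0.040 for E2F3, -0.040 to 0.13 for E2F4, -0.36 to 0.093 for E2F6, -0.039 to 0.13 for TFDP1 and -0.25 to 0.22 for TFDP2. In Huh-7 they were -0.048 to 0.052 for E2F2, -0.21 to 0.020 for E2F3, -0.059 to 0.25 for E2F4, -0.24 to 0.14 for E2F5, -0.022 to 0.23 for E2F6 and -0.16 to 0.24 for TFDP2. For the difference of responses they were -0.065 to 0.16 for E2F3, -0.22 to 0.094 for E2F4 and -0.34 to 0.14 for TFDP2.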
